A study of Mus musculus with 6 samples.

Results

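The 36 genes described here are those by which macrophages and monocytes are usually recognised, chosen by name and not by their values, in the skull roof of 10-day-old mice. The mutants were 13del-tg mice, which express a Col10a1-13del transgene and which the submitters describe as having bone overgrowth. The controls were their wild-type littermates, and the mice of both groups were held in a minimal disease area. The promoter that drives the transgene is not given in the sources used here. Parietal bones were cryosectioned before RNA extraction, so a sample can hold marrow and adjoining tissue as well as bone, and each was hybridised to 1 Affymetrix mouse array of 45101 probe sets. Per genotype, 3 biological replicates are labelled. The values deposited as 13del-tg 1 and as control 1 are identical for 45101 of 45101 probe sets, so this array, called the shared array here, carries both labels and is shown apart. The comparison therefore set 13del-tg 2 and 3 against controls 2 and 3, and 2 arrays per genotype limit the precision of every value.

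Each gene was read from probe sets annotated with that symbol alone, and from the one with the highest mean log2(intensity + 16) over the 5 distinct arrays. All 36 genes had such a probe set, out of 18193 genes on the array. Of these, 34 lay at or above the level required for testing, a mean corresponding to an intensity of 61.9. The others, Siglec1 and Vsig4, were too dim to test.

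Macrophages are phagocytes that arise from embryonic precursors or from blood monocytes, and the transcription factor PU.1 is required for their formation. In bone they line the surfaces on which osteoblasts work, clear dying cells, and form the centres of the islands in which red cells mature, where they recycle iron. Osteoclasts come from the same lineage and share with macrophages the signalling adaptors that carry ITAM motifs.

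Promoter sequence is shown for C1qb, C1qc and Fcer1g, to put the sequence of bright, macrophage-rich genes beside their values, since PU.1 acts at promoters of myeloid genes. They were picked as examples with their values known, 2 with and 1 without the motif searched for. C1qb and C1qc lie beside C1qa as neighbours on chromosome 4. The windows run from 250 bases before to 50 bases after the annotated start, 5′ to 3′ on the gene's own strand, from RefSeq on GRCm38.p6, at chr4:136886151-136886450 (minus strand), chr4:136892865-136893164 (minus strand) and chr1:171234300-171234599 (minus strand). Capitals mark GAGGAA, a purine-rich form of PU.1 sites, or its reverse complement TTCCTC, searched on both strands. Other forms of PU.1 sites were not searched for.
C1qb: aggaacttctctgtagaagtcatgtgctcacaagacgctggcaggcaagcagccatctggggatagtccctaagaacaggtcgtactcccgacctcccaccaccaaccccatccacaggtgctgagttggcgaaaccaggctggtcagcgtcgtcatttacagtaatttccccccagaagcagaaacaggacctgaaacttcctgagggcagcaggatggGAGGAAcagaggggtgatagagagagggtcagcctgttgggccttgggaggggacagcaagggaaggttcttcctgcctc
C1qc: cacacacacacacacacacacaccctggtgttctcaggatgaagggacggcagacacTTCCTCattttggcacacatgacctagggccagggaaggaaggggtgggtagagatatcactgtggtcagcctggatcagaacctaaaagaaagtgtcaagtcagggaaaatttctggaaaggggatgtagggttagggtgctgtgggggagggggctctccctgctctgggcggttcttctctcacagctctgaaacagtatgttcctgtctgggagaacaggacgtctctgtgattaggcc
Fcer1g: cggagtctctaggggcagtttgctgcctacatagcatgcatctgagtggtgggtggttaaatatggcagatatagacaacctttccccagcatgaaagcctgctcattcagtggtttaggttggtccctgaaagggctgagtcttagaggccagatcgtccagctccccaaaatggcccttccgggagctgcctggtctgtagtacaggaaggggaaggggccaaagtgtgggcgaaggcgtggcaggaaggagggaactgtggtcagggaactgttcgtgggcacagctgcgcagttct
C1qb and C1qc held 1 match each and Fcer1g held 0. Windows were at hand for 25 of the 36 genes. A match was present in 17 of their 29 windows (58.6%), against 28.3% of 32851 windows of all genes. A match is a description of the letters and not a binding site.

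Every array had a trimmed mean intensity of 500.003 in the deposited values. Col10a1, the gene of the transgene, had intensities of 15689 and 11584 on the 13del-tg arrays, against 149.8 and 158.2 on the controls, and 152.2 on the shared array. By this gene the shared array was at the level of the controls. The log2 difference of Col10a1 was 6.31 (SE 0.22, limma adjusted p = 0.000213). Bone genes were bright on every array: Ibsp, the bone sialoprotein gene, ran from 13287 to 13809 in 13del-tg and from 9903 to 11564 in controls. Xist, expressed from the inactive X chromosome of females, had 15206 on 13del-tg 3, against 57.6 on 13del-tg 2 and 55.6 and 84.5 on controls 2 and 3, so 13del-tg 3 stood apart by sex-linked signal. Genes of skeletal muscle were low on control 3, where Ckm, the muscle creatine kinase, had 2958, against 18368 on control 2 and 27258 and 21097 on 13del-tg 2 and 3. Both features sit inside the 2 against 2 comparison, and their part in the values below was not tested.

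Whether the 13del-tg calvaria differed in macrophage and monocyte gene expression was asked gene by gene. None of the 34 tested genes passed in either direction: 0 had an adjusted p under 0.05 by limma (Benjamini-Hochberg over all 12859 genes, two-sided), where 0.0622% of all genes did, 0.0467% lower and 0.0156% higher in 13del-tg. At an unadjusted p under 0.05 there was 1 of the 34, beside 6.8% of all genes. It was lower in 13del-tg, as 5.31% of all genes were, and 0 were higher, beside 1.49% of all genes. The genotypes were separate for 10 of the 34 genes, beside 39.7% of all genes. In these 10 both 13del-tg values were the lower ones (26.3% of all genes), and in 0 the higher ones (13.4%). The other 24 genes had overlapping groups. The log2 differences, 13del-tg minus control, ran from -0.74 (Itgb2) to 0.38 (Msr1), with a median of -0.16 beside -0.074 for all genes tested. In bulk tissue, fewer cells of a type and less RNA per cell cannot be told apart.

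A negative difference was found for 28 of the 34 genes and for 58.8% of all genes. This direction depended on the scaling. When arrays were instead centred on their medians, the median of all genes shifted by 0.18, and 14 of the 34 genes, beside 37.8% of all genes, had a negative difference. Then 4 of the 34 had both 13del-tg values the lower (12.8% of all genes) and 3 had them the higher (22.1%). Set against the median of all genes, the median of the 34 was -0.082 under both scalings. It could not differ, since centring shifts the difference of every gene by the same amount. This relative median was -0.093 with quantile normalization, -0.217 without 13del-tg 3 and 0.01 without 13del-tg 2. With the shared array as an added control it was -0.0021, and 23 of the 34 genes had a negative difference, beside 58.5% of all genes. As an added 13del-tg array it gave -0.081 and 29 of the 34, beside 59.3%. Standard errors ran from 0.17 to 0.47 on the log2 scale. The 95% interval lay within a 2-fold change either way for 25 of the 34 genes and included 0 for 33, without adjustment for the number of genes. For 24 of the 34 the gap between the 2 arrays of 13del-tg was larger than the genotype difference. The 2 are unlike measures, since a gap between single arrays varies more than a difference between means of 2.

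**Figure D1:**
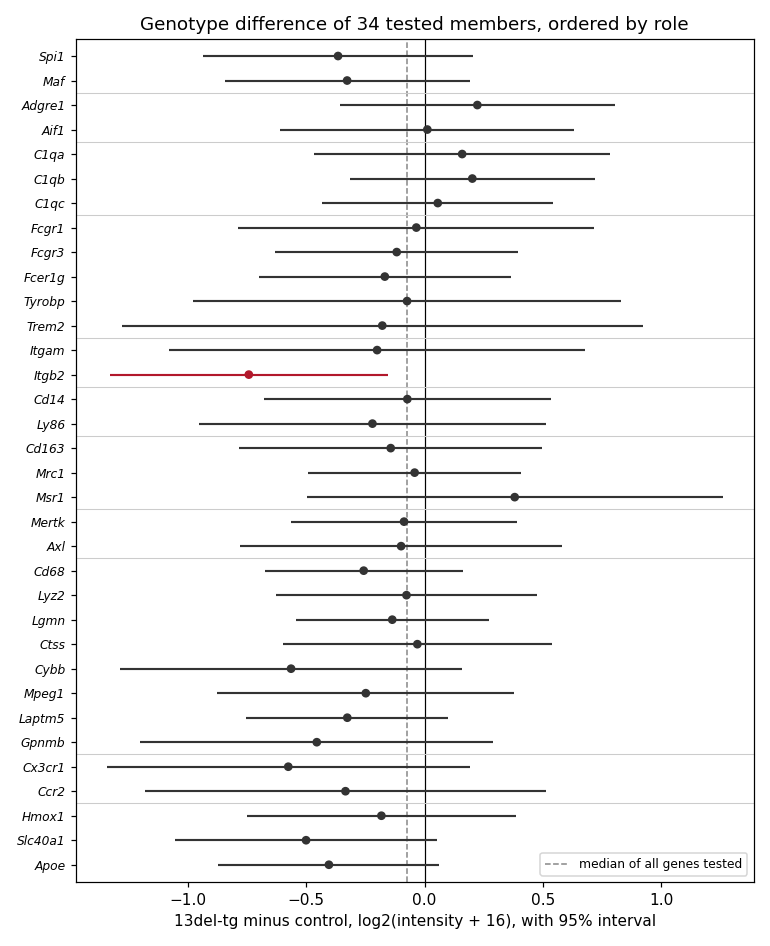
Log2 difference, 13del-tg minus control, of log2(intensity + 16) for the 34 tested macrophage and monocyte genes, grouped by role from top to bottom, with lines for the 95% interval of the limma fit (2 arrays per genotype). Itgb2, drawn in red, is the 1 gene with an unadjusted p under 0.05, and the dashed line marks the median of all genes tested, -0.074.

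Among transcription factors, Spi1, which encodes PU.1, had intensities of 736 and 678.7 on the 13del-tg arrays, against 775 and 1081 on the controls. The genotypes did not overlap, and the shared array, at 576.6, lay below all 4. The log2 difference was -0.37 (SE 0.24, 95% interval -0.94 to 0.20, adjusted p = 0.731 by limma), with -0.13 without control 3 and -0.60 without control 2. Maf, whose product c-MAF promotes genes of resident macrophages such as those of C1q, had 1918 and 1504 in 13del-tg, against 2366 and 1926 in controls. These groups did not overlap either, though 13del-tg 2 and control 3 differed little, and the shared array had 2466, above all 4. The Maf difference was -0.33 (SE 0.22), with -0.15 without 13del-tg 3, -0.18 without control 2 and -0.50 without 13del-tg 2, and all 6 of its probe sets were negative.

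Adgre1, which encodes the macrophage surface protein F4/80, had 599.1 and 643.3 in 13del-tg, against 617.2 and 454.1 in controls, a log2 difference of 0.22 (SE 0.25) that was 0.0082 without control 3. Aif1, the gene of the actin-binding protein IBA1, had 357.3 and 505.2 in 13del-tg, against 417.7 and 425.4 in controls. Both groups overlapped for these 2 markers, and the Aif1 difference was 0.012 (SE 0.26).

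The 3 C1q chains, which together form the recognition unit of the classical complement pathway, all had small positive differences. C1qa had 1695 and 2617 in 13del-tg, against 1659 and 2142 in controls. C1qb had 1681 and 2125 in 13del-tg, against 1478 and 1823 in controls. C1qc had 1656 and 2052 in 13del-tg, against 1666 and 1887 in controls. For each chain 13del-tg 3 was the highest array and the shared array the lowest, at 1383, 1324 and 1238 for C1qa, C1qb and C1qc, and the groups overlapped. The log2 differences were 0.16 (SE 0.26), 0.20 (SE 0.22) and 0.056 (SE 0.21) in that order, with adjusted p from 0.82 to 0.954 by limma. That of C1qb was 0.034 without 13del-tg 3 and 0.052 without control 2.

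**Figure D2:**
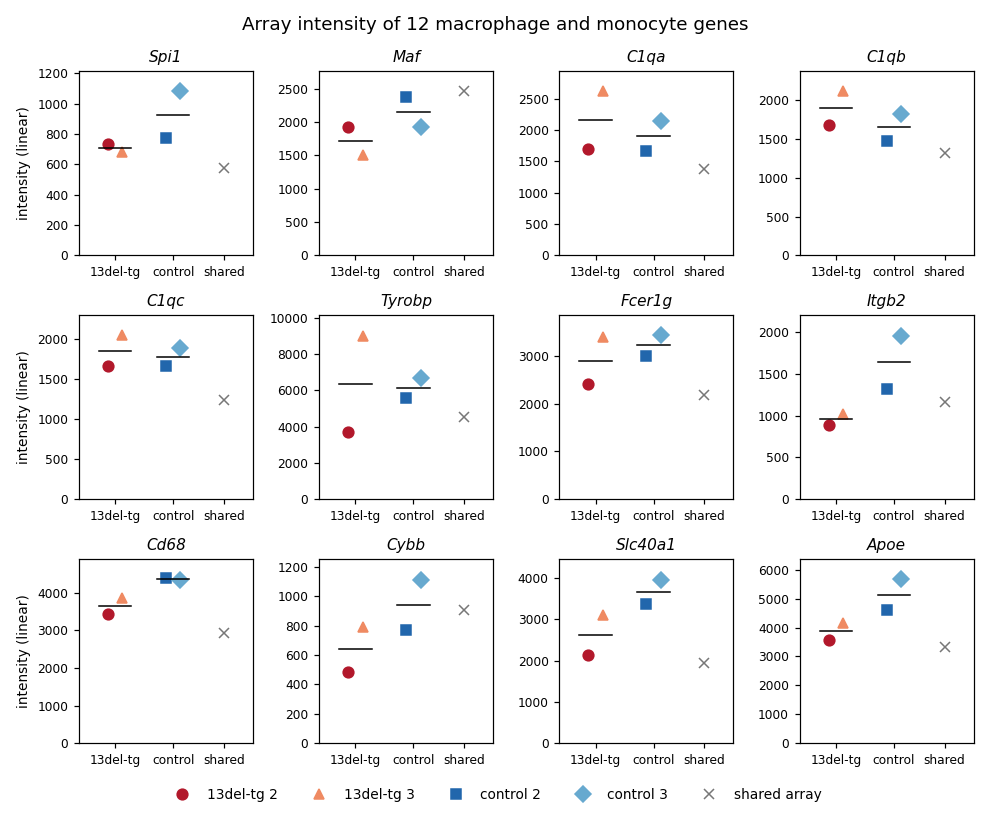
Linear intensity of 12 of the genes on each array, with 13del-tg at the left, controls in the middle and the shared array at the right of each panel. Each point is 1 array and horizontal lines are means of 2 arrays. Itgb2, Slc40a1 and Apoe had both 13del-tg points below both control points, whereas Tyrobp spanned 3723 to 8967 within 13del-tg.

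Fc receptors bind antibody-coated targets and signal through ITAM adaptors. Tyrobp, which encodes the adaptor DAP12 used by TREM2 and many other myeloid receptors, had 3723 and 8967 in 13del-tg, against 5558 and 6662 in controls. The 13del-tg arrays thus enclosed both controls, with a ratio of 2.41 between them. The means of linear intensity, 6345 in 13del-tg and 6110 in controls, ran opposite to the log2 values. The log2 difference was -0.074 (SE 0.38, 95% interval -0.98 to 0.83), 0.56 without 13del-tg 2 and -0.71 without 13del-tg 3. Trem2, a lipid-sensing receptor, showed the same enclosure, with 69.8 and 188.4 in 13del-tg and 134.5 and 133.3 in controls, a difference of -0.18 (SE 0.47). Without 13del-tg 2 it was 0.45 and without 13del-tg 3 it was -0.81. Its intensity lay near the level required for testing.

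Fcer1g, the common Fc receptor gamma chain, had 2409 and 3399 in 13del-tg, against 3003 and 3447 in controls, a log2 difference of -0.17 (SE 0.23). Fcgr3, a low-affinity IgG receptor, had 798.1 and 995.1 in 13del-tg, against 933.4 and 1005 in controls, with a difference of -0.12 (SE 0.22). Fcgr1, the high-affinity IgG receptor, was nearly level on its brightest probe set, at 129.4 and 133.6 in 13del-tg, against 140.9 and 129.5 in controls. Its second probe set bright enough for testing had 119.4 and 38.1 in 13del-tg, against 81.6 and 126.3 in controls. The log2 differences of these probe sets were -0.035 and -0.46. Overlap of the groups held for all 5 genes of this class.

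Itgb2, the beta chain shared by the leukocyte integrins, had the largest difference of the 34 genes. It had 890.2 and 1022 in 13del-tg, against 1322 and 1953 in controls, and the shared array, at 1162, lay between the groups. The log2 difference was -0.74 (SE 0.25, 95% interval -1.33 to -0.16), a fold of 0.598, with an unadjusted p of 0.0201 and an adjusted p of 0.697 by limma. It did not pass, and without control 3 the difference was -0.46. With the replicate number as a block, a pairing no label states, its adjusted p was 0.0276 by limma, and 4.74% of all genes passed in that fit. Itgam, which encodes the alpha chain of the integrin CR3, or Mac-1, and pairs with the Itgb2 product, had 212.7 and 129.3 in 13del-tg, against 154.7 and 241.1 in controls. These groups overlapped, and its difference was -0.20 (SE 0.37). Itgb2 is expressed by leukocytes of all kinds, and lists of other blood cells that were lower on the 13del-tg arrays are given below. Their part in the Itgb2 value was not tested.

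Cd14 and Ly86 encode proteins of endotoxin sensing. Cd14, the co-receptor that hands lipopolysaccharide to TLR4, had 422.8 and 424.1 in 13del-tg, against 380.1 and 523.4 in controls. Ly86, or MD-1, the partner of the receptor CD180, had 509.6 and 867.6 in 13del-tg, against 666.1 and 908.2 in controls. Both groups overlapped, with log2 differences of -0.073 (SE 0.26) for Cd14 and -0.22 (SE 0.31) for Ly86.

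Scavenger and lectin receptors are typical of resident macrophages. Mrc1, the mannose receptor, was among the most stable of the genes, with 2043 and 1881 in 13del-tg, against 2157 and 1890 in controls, a log2 difference of -0.042 (SE 0.19, 95% interval -0.49 to 0.41). Cd163, the receptor for haptoglobin-bound haemoglobin, had 331.4 and 486.5 in 13del-tg, against 458.3 and 432.8 in controls. Its difference was -0.14 (SE 0.27), and the shared array, at 578.5, lay above all 4. Msr1, a class A scavenger receptor, had 141.1 and 120.2 in 13del-tg, against 76.3 and 120.7 in controls. Its difference of 0.38 (SE 0.37) was the largest positive one, but it was 0.098 without control 2, and its 3 probe sets bright enough for testing disagreed in sign.

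Siglec1, the sialoadhesin of marrow and lymph node macrophages, had intensities of 25.7 and 41.9 in 13del-tg, against 41.1 and 69 in controls. Vsig4, a complement receptor of tissue macrophages, had 56.5 and 5.5 in 13del-tg, against 2.3 and 54.8 in controls. Signals at this level are near the noise of the array, and no difference was tested for either.

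Mertk and Axl encode receptor kinases by which macrophages take up dying cells. Mertk had 1184 and 1067 in 13del-tg, against 1125 and 1268 in controls, a log2 difference of -0.087 (SE 0.20) that was -0.0017 without control 3. Axl, which fibroblasts and endothelial cells also express, had 2452 and 1387 in 13del-tg, against 1847 and 2117 in controls, a difference of -0.099 (SE 0.29). The 13del-tg arrays enclosed both controls for Axl, but in the order opposite to that of Tyrobp, with 13del-tg 2 the higher. The Axl difference was -0.51 without 13del-tg 2 and 0.31 without 13del-tg 3.

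All 8 genes of the phagosome and lysosome had negative differences, with a median of -0.25, though Lyz2, Lgmn and Ctss turned positive with centred arrays. All 8 were higher on 13del-tg 3 than on 13del-tg 2. Cd68, a glycoprotein of macrophage lysosomes, had 3439 and 3862 in 13del-tg, against 4382 and 4336 in controls. The groups did not overlap, and the log2 difference was -0.26 (SE 0.18, adjusted p = 0.735 by limma). Laptm5, a lysosomal membrane protein of blood cells, had 2564 and 2756 in 13del-tg, against 3493 and 3189 in controls, a difference of -0.33 (SE 0.18). Lgmn, the lysosomal protease legumain, had 4241 and 4465 in 13del-tg, against 4639 and 4937 in controls, a difference of -0.14 (SE 0.17). Like Cd68, both had groups that did not overlap. The shared array lay below all 4 for Cd68 (2929) and Lgmn (3966), and within their range for Laptm5 (2969).

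Cybb, the catalytic subunit of the phagocyte NADPH oxidase, had 487.8 and 788.4 in 13del-tg, against 771.2 and 1110 in controls. Its log2 difference of -0.56 (SE 0.31) came with overlapping groups and was -0.23 without 13del-tg 2 and -0.90 without 13del-tg 3. All 3 of its probe sets bright enough for testing were negative. On 1 of them the groups did not overlap, with 273.6 and 207.5 in 13del-tg, against 331.4 and 442 in controls. Gpnmb, a glycoprotein of lipid-laden macrophages that osteoclasts and osteoblasts also make, had 160.8 and 228 in 13del-tg, against 231.2 and 312.2 in controls. The groups were separate, 13del-tg 3 by a narrow margin, with a difference of -0.46 (SE 0.32) that was -0.22 without 13del-tg 2 and -0.25 without control 3.

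Lyz2, the lysozyme of macrophages and neutrophils, had 4565 and 6979 in 13del-tg, against 6017 and 5890 in controls. Ctss, the protease cathepsin S of antigen presentation, had 1122 and 1656 in 13del-tg, against 1412 and 1374 in controls. Mpeg1, the pore-forming perforin-2, had 605.3 and 949.1 in 13del-tg, against 931.5 and 877 in controls. For these 3 genes the 13del-tg arrays enclosed both controls, and the log2 differences were -0.076 (SE 0.23) for Lyz2, -0.031 (SE 0.24) for Ctss and -0.25 (SE 0.27) for Mpeg1. Each turned positive without 13del-tg 2, at 0.23, 0.25 and 0.069 in the same order.

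Chemokine receptors separate monocyte types. Cx3cr1, the fractalkine receptor of patrolling monocytes and tissue macrophages, had 249.4 and 156.7 in 13del-tg, against 266.6 and 344.5 in controls. The groups did not overlap, and the log2 difference was -0.58 (SE 0.32, 95% interval -1.34 to 0.19, adjusted p = 0.717 by limma). Ccr2, the receptor by which inflammatory monocytes leave the marrow, had 153.8 and 100.1 in 13del-tg, against 186.7 and 138.6 in controls, a difference of -0.33 (SE 0.36). The shared array had 233.7 for Ccr2, above all 4 arrays, and all 3 of its probe sets bright enough for testing were negative. Without 13del-tg 3, the Cx3cr1 difference was -0.27 and that of Ccr2 -0.060.

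The 3 genes of heme, iron and lipid handling also had negative differences, of which Hmox1 turned positive (0.0014) with centred arrays. Slc40a1, which encodes ferroportin, the iron exporter of red cell-recycling macrophages, had 2137 and 3103 in 13del-tg, against 3370 and 3956 in controls. 13del-tg was the lower on both arrays, and the shared array was lower still, at 1932. The log2 difference was -0.50 (SE 0.23, 95% interval -1.05 to 0.05, adjusted p = 0.715 by limma), with -0.23 without 13del-tg 2. A second Slc40a1 probe set had 1154 and 977.6 in 13del-tg, against 1561 and 1911 in controls, a difference of -0.69. There the shared array, at 1320, lay between the groups. Ferroportin is also made by erythroid precursors, and the erythroid list was lower on both 13del-tg arrays, as given below. The part of these cells in the Slc40a1 value was not tested.

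Apoe, the lipid carrier apolipoprotein E, had 3571 and 4168 in 13del-tg, against 4597 and 5683 in controls, a log2 difference of -0.40 (SE 0.20, 95% interval -0.87 to 0.06) that was -0.25 without control 3. Its groups did not overlap, and the shared array, at 3345, lay below all 4. Hmox1, the heme-degrading heme oxygenase, had 620.4 and 579 in 13del-tg, against 790.5 and 588.7 in controls. On Hmox1 the groups overlapped, with a difference of -0.18 (SE 0.24).

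The arrays of one genotype also differed from each other, though these gaps are between single arrays and genotype differences between means of 2. On the log2 scale, the median absolute gap over the 34 genes was 0.41 between 13del-tg 3 and 13del-tg 2 and 0.25 between the controls. The 13del-tg 3 array was the higher for 24 of the genes, led by Tyrobp (1.26), Trem2 (1.25) and Ly86 (0.75), and the lower for genes that included Axl (-0.81), Itgam (-0.65) and Cx3cr1 (-0.62). Control 3 was higher than control 2 for 21 genes. Of the 5 arrays, control 3 was the highest for 14 genes and 13del-tg 3 for 9. The lowest was the shared array for 13 genes and 13del-tg 2 for 12.

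**Figure D3:**
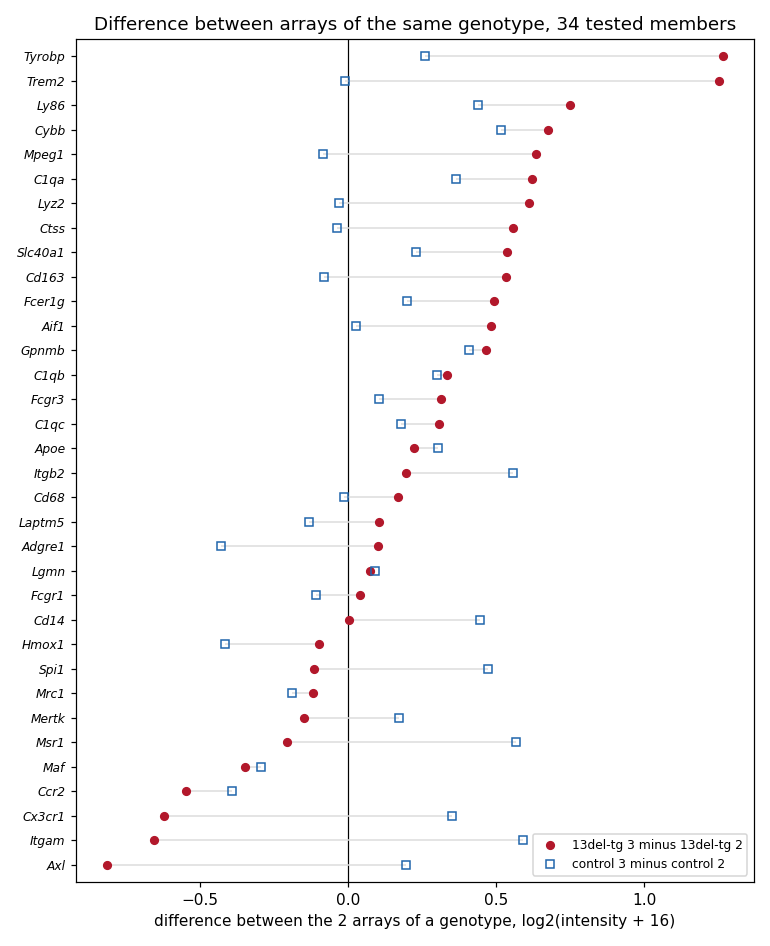
Difference in log2(intensity + 16) between the 2 arrays of each genotype for the 34 genes, sorted by the 13del-tg gap. Filled circles are 13del-tg 3 minus 13del-tg 2 and open squares control 3 minus control 2. Tyrobp and Trem2 had 13del-tg gaps above 1 while Axl, Itgam and Cx3cr1 lay on the other side.

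Other genes of the lineage, taken from lists named by cell type or pathway, were set beside these. Their directions are those without centring, which moved the median of all genes upward by 0.18. Of 16 resident macrophage genes 11 were tested, 6 negative and 5 positive, with a median log2 difference of -0.068 and 0 past either threshold by limma. Csf1r, the receptor for the macrophage growth factor CSF1, had 11182 and 11507 in 13del-tg, against 13696 and 13520 in controls, a difference of -0.26 (SE 0.16). Lyve1, a hyaluronan receptor of perivascular macrophages and lymphatic vessels, had 501.4 and 450.1 in 13del-tg, against 271.9 and 376.9 in controls, a difference of 0.55 (SE 0.27). Cd209f, a lectin of resident macrophages, had 0.45 (SE 0.29). The groups did not overlap for these 3 genes, which were named for the smallest unadjusted p of the list, a choice that favours separate groups. Over the 11 tested, 4 had both 13del-tg values the lower (26.3% of all genes) and 2 the higher (13.4%).

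Of 9 tested monocyte genes, 8 were negative, with a median of -0.52, and 0 passed over all genes by limma. At an unadjusted p under 0.05, 2 were lower (5.31% of all genes) and 1 higher (1.49%). Irf8, a transcription factor of monocyte and dendritic cell formation, had 182 and 246.1 in 13del-tg, against 344 and 442.5 in controls, a log2 difference of -0.83 (SE 0.29). Vcan, the proteoglycan versican, which mesenchymal cells also make, had -0.52 (SE 0.19). Klf4, a monocyte regulator that skeletal and epithelial cells also express, went the other way at 0.58 (SE 0.19). The 13del-tg and control arrays were separate for all 3, which again had the smallest unadjusted p of their list. Over the 9 tested, 4 had both 13del-tg values the lower (26.3% of all genes) and 1 the higher (13.4%).

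Signalling genes common to leukocytes had mostly negative differences. Of 12 tested, 10 were negative, 4 had an unadjusted p under 0.05, all lower (5.31% of all genes), and 0 passed over all genes by limma, with a median of -0.51. In 9 of the 12 the genotypes were separate, with 13del-tg lower (26.3% of all genes). Ptpn6, the phosphatase SHP-1, had 400.2 and 378.6 in 13del-tg, against 685.5 and 720.5 in controls, a log2 difference of -0.83 (SE 0.22, adjusted p = 0.566 by limma). Btk, a kinase of B cells and myeloid cells, had -0.70 (SE 0.23). Ptprc, the pan-leukocyte antigen CD45, had 1360 and 1831 in 13del-tg, against 2362 and 2466 in controls, a difference of -0.61 (SE 0.21). Cd53, a leukocyte tetraspanin, had -0.53 (SE 0.19).

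Genes of macrophage function outside the 36 were grouped by pathway, and 0 passed over all genes by limma. Of 12 tested pattern recognition receptors and adaptors, 8 were negative (median -0.21), and Ly96, the MD-2 partner of TLR4, had -0.58 (SE 0.25). Cd180, the receptor that pairs with the Ly86 product, had 35.5 and 63.1 in 13del-tg, against 83.5 and 144.6 in controls, a log2 difference of -0.99 (SE 0.46) at low intensity. Clec7a, the beta-glucan receptor dectin-1, had -0.62 (SE 0.31). The groups were separate for all 3, which had the smallest unadjusted p of their list. Over the 12 tested, 4 had both 13del-tg values the lower (26.3% of all genes) and 2 the higher (13.4%). Of 4 tested partners of the NADPH oxidase, 3 were negative (median -0.21), with Rac2, its leukocyte GTPase, at -0.58 (SE 0.25). Of 16 tested lysosomal genes, 11 were negative (median -0.10), with the proteases Ctsd at -0.34 (SE 0.18) and Ctsl at 0.39 (SE 0.22). No gene of these 3 lists had an unadjusted p under 0.05 by limma.

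Of 11 tested partners in the uptake of dying cells, 7 were negative (median -0.054). Abca1, a cholesterol exporter, had -0.49 (SE 0.18), the 1 gene of that list with an unadjusted p under 0.05 (5.31% of all genes were lower at that level). Of 9 tested iron and heme genes, 8 were negative (median -0.20), and Blvrb, a biliverdin reductase abundant in red cells, had -0.74 (SE 0.36). Of 7 tested lipid genes, 3 were negative (median 0.15), with Apoc1, an apolipoprotein of macrophages, at -1.46 (SE 0.50) from 97.5 and 85.9 in 13del-tg, against 484.4 and 160.1 in controls. Of 8 tested complement genes outside C1q, 5 were positive (median 0.11). Serping1, the C1 inhibitor, had 7457 and 7575 in 13del-tg, against 4816 and 5455 in controls, a log2 difference of 0.55 (SE 0.17, adjusted p = 0.658 by limma), whereas C3ar1, a complement receptor of macrophages, had -0.62 (SE 0.28). At an unadjusted p under 0.05 by limma, the lipid list also had 1 gene lower, and the complement list had 1 higher (1.49% of all genes). The iron and heme list had 0. No gene of these 4 lists passed over all genes.

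Recruiting and activating signals had mostly negative differences, and many were dim. Of 12 tested chemokine and CSF1-type ligand genes, 9 were negative (median -0.21), with 0 at an unadjusted p below 0.05 by limma. Cxcl12, the marrow retention chemokine, had -0.41 (SE 0.21) and Ccl4, a chemokine for monocytes and lymphocytes, -0.59 (SE 0.43). Csf1 had 789.7 and 561.6 in 13del-tg, against 780.9 and 916.8 in controls, a log2 difference of -0.34 (SE 0.25). Of 11 activation genes, 4 were bright enough to test and all 4 were negative. Il1b, the interleukin 1 beta gene, had 56.8 and 105.2 in 13del-tg, against 117.6 and 209.6 in controls, a difference of -0.89 (SE 0.44). Tnf had 5.9 and 25.6 in 13del-tg, against 13.8 and 68 in controls, and Nos2 had 7 and 5 in 13del-tg, against 7.9 and 6.3 in controls, too dim to test.

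Markers of related or adjoining cells were read in the same way. Of 7 tested microglia genes, 4 were negative, with a median of -0.14, and 0 reached an unadjusted p below 0.05 by limma. Olfml3, an extracellular matrix protein, had -0.21 (SE 0.17), Gpr34, a lysophospholipid receptor, -0.42 (SE 0.41), and Tmem119, a membrane protein that osteoblasts also make, -0.14 (SE 0.22). The cells that gave these signals were not identified. Sall1, the transcription factor of microglia, had 13 and 18.4 in 13del-tg, against 137.4 and 128.8 in controls and 17.5 on the shared array. Its mean over the 5 arrays fell below the level required for testing, though both controls lay above that level. It was therefore not tested, and the median of the list leaves it out. Genes of the pineal gland and photoreceptors were likewise low on both 13del-tg arrays and the shared array, with a summed intensity of 396 and 455 in 13del-tg, against 4271 and 8945 in controls and 576 on the shared array, and their part in the Sall1 value was not tested. All 13 osteoclast genes were negative, with a median of -0.34. Of these, 3 reached an unadjusted p below 0.05 by limma (5.31% of all genes were lower at that level), and 7 had both 13del-tg values the lower ones (26.3% of all genes). Atp6v0d2, a proton pump subunit of osteoclasts, had 2753 and 3969 in 13del-tg, against 5002 and 5240 in controls.

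Lists of other blood lineages had lower median differences than the macrophage and monocyte genes, given as values since the difference between lists was not tested. The median log2 difference was -2.22 over 8 tested erythroid genes, of which 8 reached an unadjusted p below 0.05 with 13del-tg the lower on both arrays (5.31% and 26.3% of all genes). It was -1.60 over 10 tested B cell genes, with 8 of 10 on both counts. It was -0.74 over 11 neutrophil genes, with 1 at an unadjusted p under 0.05 and 2 with separate groups. No gene of the 3 lists passed over all genes by limma. Alas2, the heme synthesis enzyme of red cells, had 2238 and 1907 in 13del-tg, against 6083 and 7404 in controls, a log2 difference of -1.69 (SE 0.20, adjusted p = 0.0658 by limma).

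The lists also differed in how they split the 2 arrays of 13del-tg. Against the mean of the controls, the median of neutrophil genes was -1.56 on 13del-tg 2 and 0.12 on 13del-tg 3, with -0.39 on control 2 and 0.39 on control 3. Their summed intensity was 19216 and 59792 in 13del-tg, against 44599 and 64425 in controls. The macrophage and monocyte genes had medians of -0.27 on 13del-tg 2 and -0.085 on 13del-tg 3, with -0.087 on control 2 and 0.087 on control 3. Their summed intensity was 47875 and 60983 in 13del-tg, against 58022 and 63304 in controls. The shared array, with a median of -0.23, lay between 13del-tg 2 and the rest. Osteoclast genes had medians of -0.50 and -0.18 on 13del-tg 2 and 3, and -0.096 and 0.096 on controls 2 and 3. Tyrobp, Lyz2, Cybb and Fcer1g, which neutrophils or osteoclasts also express, were lower on 13del-tg 2 than on 13del-tg 3. This held for 24 of the 34 tested macrophage and monocyte genes, so it was not particular to those named. Itgam went the other way, with 212.7 on 13del-tg 2 and 129.3 on 13del-tg 3. The part of neutrophils and osteoclasts in these values was not tested.

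**Figure D4:**
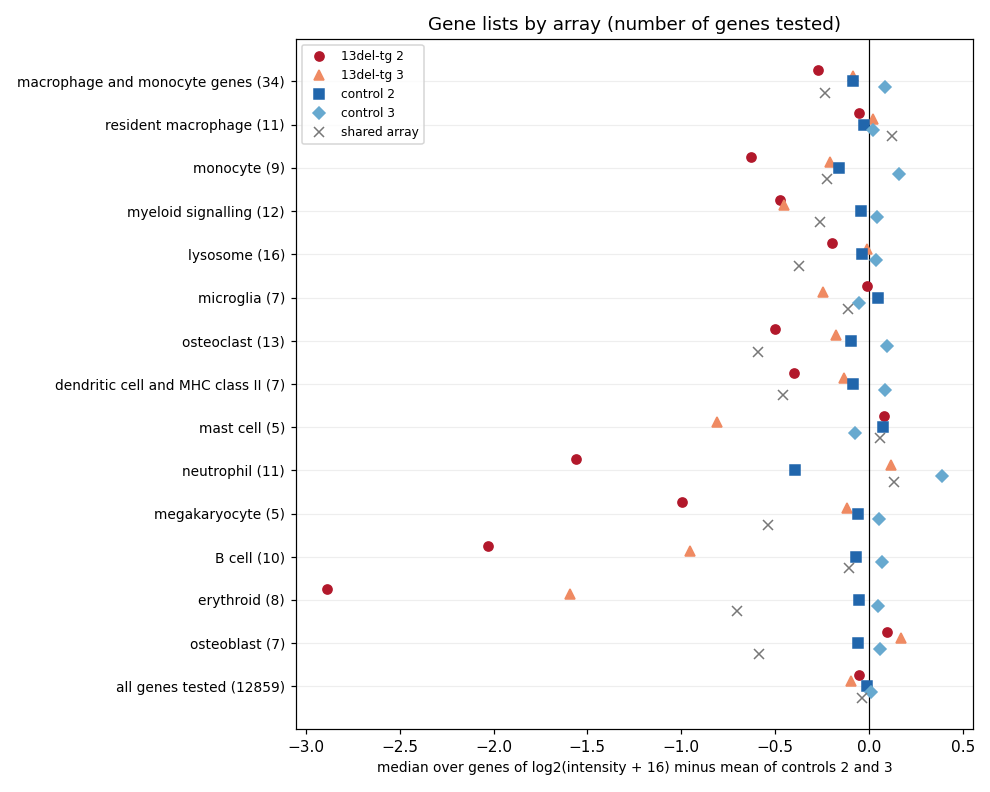
Median, over the tested genes of each list, of log2(intensity + 16) minus the mean of controls 2 and 3, on each array, with the number of genes tested in brackets. Erythroid and B cell genes lay below -0.9 on both 13del-tg arrays, whereas the 34 macrophage and monocyte genes lay between -0.27 and 0.087 on all arrays.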

How the data were processed

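Deposited values were linear intensities, 1 per probe set and array. MAS5 is named in the submitters' processing notes without a version, and the deposited intensities shared one trimmed mean (2% left out at each end). The shared array was left out of the fit. Intensities were taken as log2(intensity + 16). Of 45037 probe sets other than 64 controls, 34945 had 1 symbol in the platform annotation, 932 several and 9160 were unnamed here, and 34741 matched the reference gene table. Probe sets with a mean at or above the 40th percentile were kept, and the brightest stood for each gene, which gave 12859 genes. Of 8 members with several kept probe sets, 1 had probe sets that differed in sign.

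Differences were fitted with limma 3.58.1 in R 4.3.3 (lmFit, eBayes with trend, 2 residual and 5.01 prior degrees of freedom) and adjusted over all genes at 0.05. The fit was tested on 20 simulated tables of 12859 genes: among genes given a log2 change of 1 it recovered 5.45%, at a change of 2 it found 65.8%, at 4 it found 95%, and 4.46% of calls were false. The simulated errors were independent between genes, with a spread drawn from the model's own fit. These rates therefore do not cover differences between arrays that move many genes together, such as those of sex or muscle. A fold understates the change of dim genes. Nothing in the labels says that replicate numbers pair animals. The members and lists were chosen with earlier results of these data known, and genes outside the members come from the 4 with the smallest unadjusted p of their list, the choice among these 4, like that of Tnf, Nos2 and Sall1, being made with values known. The choice of the motif followed the members' known regulator.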

Additional observations from a re-analysis of the deposited data

Results flagged for a closer look

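The shared array was left out of the main comparison and entered only alternative fits. For 13 of the 34 genes its intensity lay below all 4 other arrays, and for 4 it lay above both controls. Maf had 2466.3, Cd163 578.5, Lyz2 7018.5 and Ccr2 233.7 on that array, and each of these also lay above both 13del-tg arrays.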

How the results depend on the processing

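No member passed the threshold under 16 of 17 alternatives. The exception was the fit with the replicate block, where Itgb2 had an adjusted p of 0.0276 (limma, difference -0.74) and its adjusted p ran from 0.203 to 1 under the other 16. That fit assumes that same-numbered arrays belong together, which no label states: the deviations of 13del-tg 2 and control 2 from their group means correlated at 0.273 across 12859 genes, and with 2 numbers this is no evidence of pairing. The number of genes past the threshold, 8, became 609 with the block, 30 with arrays centred on the median, 25 with robust eBayes, 5 and 2 with pseudocounts of 64 and 1, 2 with quantile normalization or a 60th percentile filter, 1 with no filter, no trend or the shared array as an added control, and 0 with all 6 columns as labelled (192 at an unadjusted p under 0.05). It ran from 1 to 232 when 1 array was left out, with 232 without control 2. The median of the members was 0.028 with centred arrays and -0.067 with the shared array as an added control. It ran from -0.27 to -0.085 without 1 array.

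Of 573 values of single genes under alternatives, 50 changed sign, none with a main difference over 0.248 in size, and 14 genes had no such value. Many of the 573 could not change sign. The replicate block, the fit with no trend, robust eBayes and the changed filters left each difference as it was. Taking all columns as labelled only shrank it, and averaging probe sets moved only genes with several kept. The share that changed sign is therefore no measure of how stable the signs were. With centred arrays the differences became Fcgr1 0.149, Fcgr3 0.066, Fcer1g 0.016, Tyrobp 0.11, Trem2 0.0051, Cd14 0.111, Cd163 0.041, Mrc1 0.142, Mertk 0.097, Axl 0.085, Lyz2 0.107, Lgmn 0.047, Ctss 0.153 and Hmox1 0.0014. With quantile normalization Fcgr1 had 0.147 and Cd14 0.020. The shared array as an added control gave Fcer1g 0.019, Tyrobp 0.070, Trem2 0.374, Mrc1 0.032 and Ctss 0.034, and as an added 13del-tg it gave Aif1 -0.156, C1qa -0.042, C1qc -0.134, Cd163 0.027 and Lyz2 0.028. Without 1 array the ranges were -0.229 to 0.252 for Aif1, -0.152 to 0.47 for C1qa, -0.097 to 0.209 for C1qc, -0.089 to 0.020 for Fcgr1, -0.274 to 0.039 for Fcgr3, -0.415 to 0.079 for Fcer1g, -0.706 to 0.558 for Tyrobp, -0.805 to 0.447 for Trem2, -0.528 to 0.127 for Itgam, -0.296 to 0.15 for Cd14, -0.595 to 0.154 for Ly86, -0.409 to 0.123 for Cd163, -0.137 to 0.053 for Mrc1, -0.506 to 0.308 for Axl, -0.382 to 0.229 for Lyz2, -0.308 to 0.247 for Ctss, -0.566 to 0.069 for Mpeg1 and -0.39 to 0.025 for Hmox1. These fits leave 1 array in a group, assumed to vary like the other group. The cause of these changes was not tested.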
